A study of Mus musculus with 7 samples.

Results

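The 38 genes described here are markers of immune cells, measured in a sort of mammary basal cells. Their names were given as a list and matched to gene symbols in the deposited table, and all 38 had a row among its 56440 gene models. Values above 0 in at least 1 library were held by 31483 models, and 16889 passed a filter of a normalised count of at least 10 in at least 3 libraries. Of the 38 genes, 25 passed that filter and 13 did not. The genes fall into 6 role groups, with 13 pan-leukocyte genes, 14 genes of macrophages and monocytes, 2 of neutrophils, 4 of the MHC class II pathway, 2 of B cells, and 3 of T and natural killer (NK) cells.

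RNA was sequenced from mouse mammary cells that had been dispersed with trypsin, labelled and sorted by FACS, without culture, at lactation day 2. The 3 a3a6KO libraries carry DKO and Blgpos in their titles, and the 4 Ctrl libraries carry Blgneg. Integrin subunits α3 and α6 are parts of receptors for laminin in the basement membrane, and Blg is, as far as the study is known, a Cre recombinase under the beta-lactoglobulin promoter, which is active in milk-producing luminal cells. Blg was present in every a3a6KO library and in no Ctrl library, so the effect of Blg and that of the integrin loss cannot be told apart. Strain, age and the alleles carried by the controls are not given in the labels. The submitters call the samples biological replicates, and whether any pools several animals is not stated.

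Mammary tissue holds macrophages and dendritic cells within and around the ducts and alveoli, lymphocytes in the stroma, and plasma cells that supply milk antibody. Leukocytes share genes of the blood lineage, such as the phosphatase Ptprc (CD45), while macrophages, B cells and T cells each add receptors of their own. Class II molecules present peptides to T helper cells on macrophages, dendritic cells and B cells, and epithelial cells can also make them when exposed to interferon gamma.

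Recovered reads ran from 9368418 to 18454773 in a3a6KO and from 14480615 to 21548279 in Ctrl. Itga3, the gene for subunit α3, had normalised counts of 494, 581 and 818 in a3a6KO replicates 1 to 3 and 719, 542, 465 and 654 in Ctrl replicates 1 to 4, and Itga6 had 9083, 8343 and 8574 in a3a6KO and 10338, 10603, 7764 and 8678 in Ctrl. The groups overlapped for both genes, so these values do not check the labels, and deletion in the luminal layer was not analysed here. All 10 basal markers passed the filter, and their median level per length was 19890.5 normalised counts per kilobase of exon, against 1436 for 12 luminal, 160.2 for 10 endothelial and 138 for 8 fibroblast markers. The defining markers of basal cells were thus present, beside transcripts of other cell types. In libraries of bulk RNA, fewer cells of a type and less RNA per cell cannot be told apart, nor can immune cells among the sorted cells be told apart from transcription of these genes by basal cells.

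Immune transcripts were a small part of every library, and their level did not follow the genotype. The 38 genes together held 0.0356%, 0.0226% and 0.0442% of reads in a3a6KO replicates 1 to 3 and 0.0188%, 0.0209%, 0.042% and 0.0332% in Ctrl replicates 1 to 4. The highest share was in a3a6KO replicate 3 and the lowest in Ctrl replicate 1, and both groups held low and high libraries. Over the 7 libraries class II genes held 17181 of the members' 33925 reads, pan-leukocyte genes 9769 and macrophage genes 6862. Of the pan-leukocyte reads, Ptpn6 held 3699 and Arhgdib 3584. The B and T cell members were at or near 0, and no member passed the test between the genotypes.

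**Figure D1:**
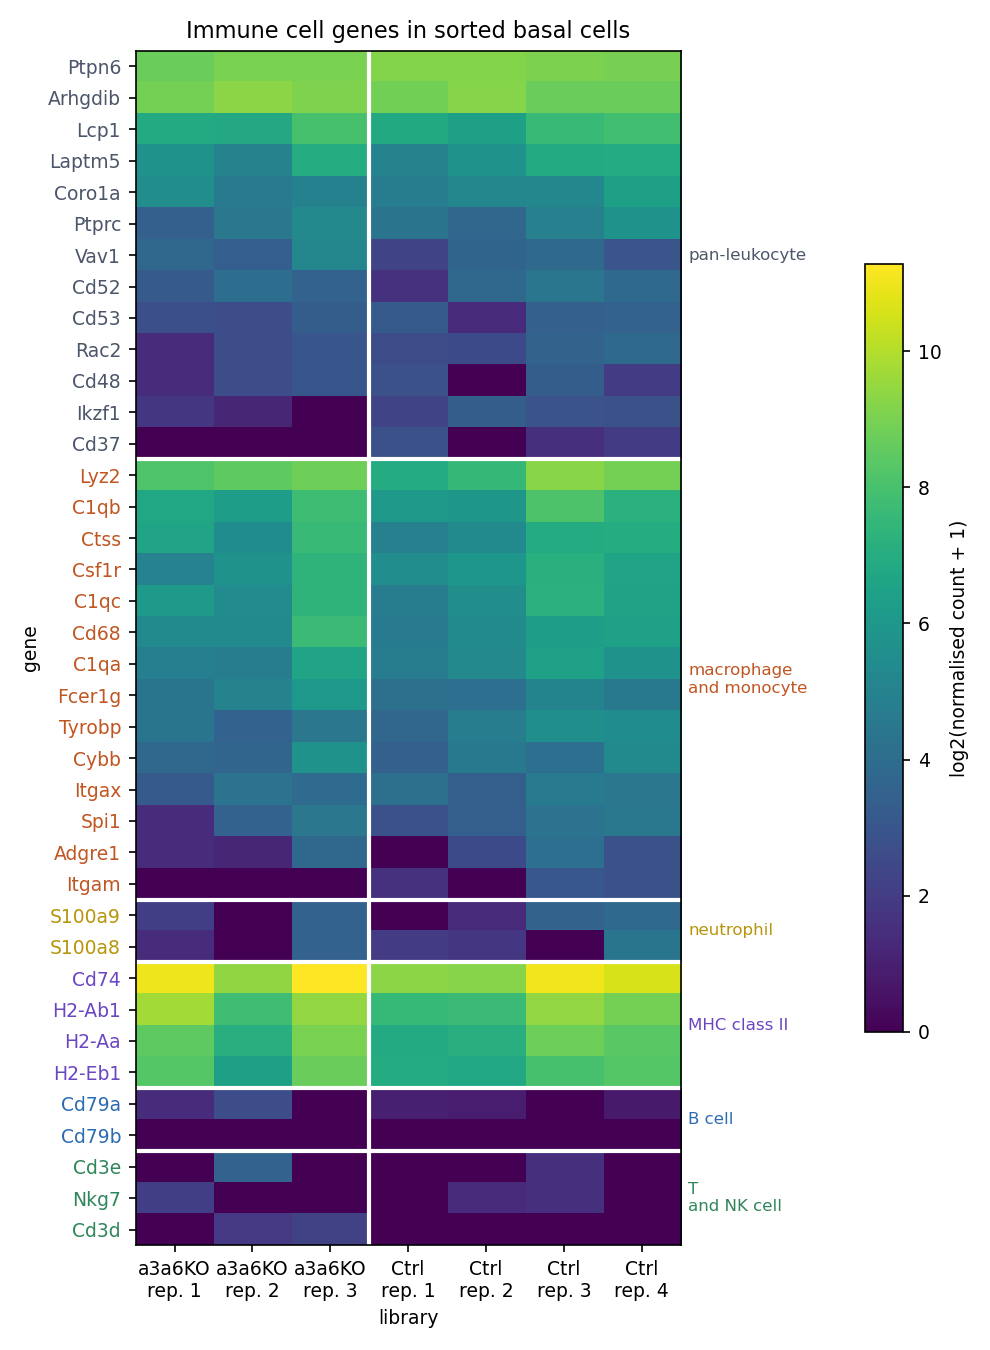
Normalised count of each of the 38 genes (rows, by role group, highest mean first) in the 3 a3a6KO and 4 Ctrl libraries (columns), coloured by log2(normalised count + 1). The class II rows and Lyz2, Ptpn6 and Arhgdib are the brightest, the B cell and T and NK cell rows are dark in nearly all libraries, and most macrophage rows are brightest in a3a6KO replicate 3, Ctrl replicate 3 and Ctrl replicate 4.

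Levels per length set the role groups in order. The median over members of the mean normalised count per kilobase was 152 for class II, 36.2 for macrophages and monocytes, 9.36 for neutrophils, 4.13 for pan-leukocyte genes, 0.488 for T and NK cells and 0.466 for B cells. Cd74, the invariant chain that chaperones class II molecules, was the highest member with 861 per kilobase. Next came Arhgdib with 298, Lyz2 with 271, H2-Ab1 with 185 and Ptpn6 with 184. Ptprc, the gene most used to mark leukocytes, had 1.44 per kilobase, so that Cd74 stood 598-fold above it. The basal keratin Krt14 stood 33.5-fold above Cd74. Exon lengths join every annotated exon of a gene, which lowers the level per kilobase of long genes with many isoforms such as Ptprc.

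**Figure D2:**
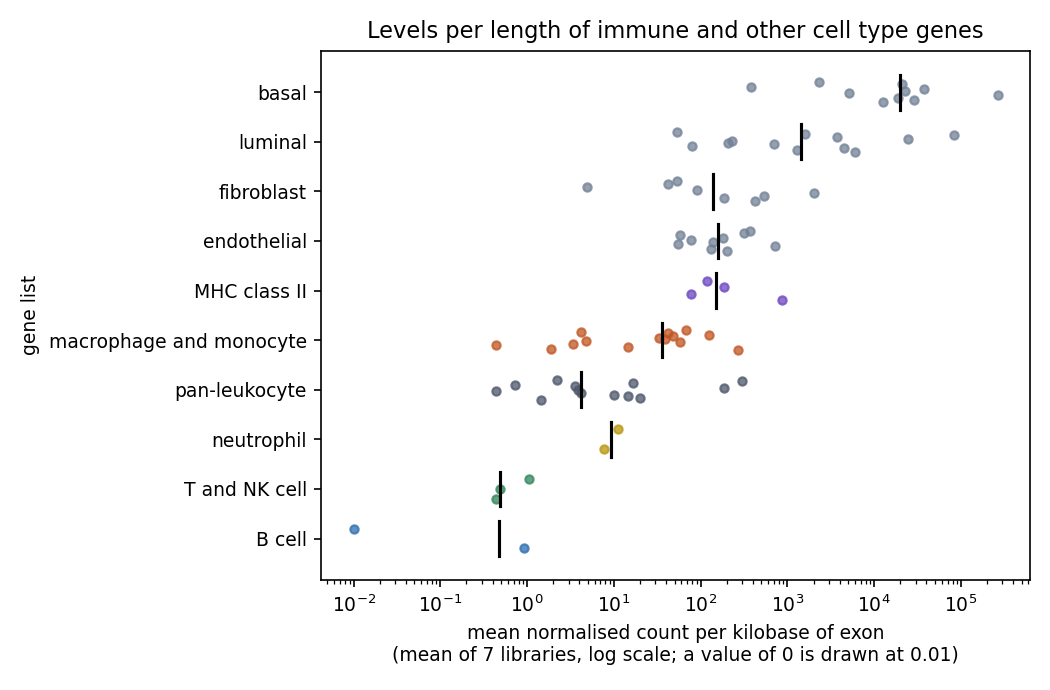
Mean normalised count per kilobase of exon over the 7 libraries (log axis) for each gene of the 6 immune role groups and of the basal, luminal, endothelial and fibroblast lists, with the black line at the median of each list. Class II genes lie among the endothelial and fibroblast genes (medians 152, 160.2 and 138), macrophage genes below them at 36.2, and T and NK cell and B cell genes at 0.488 and 0.466.

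The class II group, led by Cd74, had the highest median level per length of the 6 role groups, and its genes varied about 4-fold between libraries of the same genotype. Cd74 had normalised counts of 2047, 682 and 2482 in a3a6KO replicates 1 to 3 and 635, 599, 2121 and 1556 in Ctrl replicates 1 to 4. H2-Ab1 (identifier GSMG0016547, chromosome 17, 34263227 to 34269418, mm10, as all coordinates here), the beta chain of the I-A molecule, had 835, 224 and 692 in a3a6KO and 187, 208, 698 and 479.6 in Ctrl. In both genes a3a6KO replicate 2 sat among the low controls, and the groups overlapped. Cd74 averaged 1737 ± 939 in a3a6KO (SD, n = 3) and 1228 ± 742 in Ctrl (SD, n = 4), and the ratio of its highest to its lowest library was 4.14. Its log2 fold change, which sets a3a6KO over Ctrl on normalised counts plus 1 and understates changes of low genes, was 0.51 (SE 0.55, 95% interval −0.74 to 1.77, limma adjusted p = 0.889). That of H2-Ab1 was 0.58 (SE 0.56, 95% interval −0.69 to 1.86, limma adjusted p = 0.874). Leaving out 1 library gave 0.158 (without a3a6KO replicate 3) to 1.09 (without a3a6KO replicate 2) for Cd74, and 0.222 (without a3a6KO replicate 1) to 1.169 (without a3a6KO replicate 2) for H2-Ab1.

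H2-Aa, the alpha chain of I-A, had 356, 136 and 518 in a3a6KO and 116, 133, 443 and 338 in Ctrl, and H2-Eb1, the beta chain of I-E, had 316, 84.4 and 418 in a3a6KO and 123, 104, 252 and 312 in Ctrl. They followed the pattern of Cd74, high in a3a6KO replicates 1 and 3 and in Ctrl replicates 3 and 4. All 4 class II log2 fold changes were above 0, with a median of 0.46, none passed the test, and the 4 genes were high and low in the same libraries, so they are not 4 separate observations. Leaving out a3a6KO replicate 3 brought the median to 0.08, and leaving out a3a6KO replicate 2 to 1.06.

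Promoter windows are shown for H2-Aa and H2-Eb1, the only members in which both motifs marked below were found. These genes followed each other across the libraries, and class II promoters share a known control region. In it, the X box is bound by the RFX complex, the Y box by NF-Y, and the coactivator Ciita is recruited by both. The windows are RefSeq sequences of GRCm38.p6 (mm10), from 250 bases before to 50 after the gene start, read 5′ to 3′ on the gene's strand. H2-Aa lies at chr17:34287774-34288073 on the minus strand and H2-Eb1 at chr17:34305617-34305916 on the plus strand. Capitals mark CTGATTGG, a Y box sequence, and GCAAC, letters from the X box, as read on this strand.
H2-Aa: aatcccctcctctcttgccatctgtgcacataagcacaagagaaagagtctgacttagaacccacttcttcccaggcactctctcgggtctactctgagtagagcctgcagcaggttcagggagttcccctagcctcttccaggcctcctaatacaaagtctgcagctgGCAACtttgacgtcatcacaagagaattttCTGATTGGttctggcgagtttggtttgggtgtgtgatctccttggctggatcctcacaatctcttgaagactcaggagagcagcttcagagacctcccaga
H2-Eb1: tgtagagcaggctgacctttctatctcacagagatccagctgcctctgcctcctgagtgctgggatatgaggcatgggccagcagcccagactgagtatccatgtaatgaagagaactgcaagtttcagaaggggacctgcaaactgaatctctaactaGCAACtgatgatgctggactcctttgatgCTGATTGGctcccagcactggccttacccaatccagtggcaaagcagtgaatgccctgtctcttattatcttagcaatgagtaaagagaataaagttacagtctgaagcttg
CTGATTGG began 51 bases before the start in H2-Aa and 62 before it in H2-Eb1, and GCAAC began 81 and 91 bases before it, so that they lay 30 and 29 bases apart. Both strands were searched, and the motifs share no letters where both were found. CTGATTGG was in 4.10% of all 32851 windows, GCAAC in 35.2% and both in 1.58%. Among 34 windows of 28 members, the pair was found in these 2 alone. Cd74 and H2-Ab1 followed the same library pattern, but neither was among the members with a match to CTGATTGG or GCAAC. Some members had no window, and a missing window was not told apart from a missing match. The motifs were chosen after the sequences were seen, and a match describes letters only.

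Among the genes that control and load class II molecules, H2-DMa was high and low in the same libraries as the class II genes, and Ciita was not. Ciita, the class II coactivator, had 44.7, 15.8 and 39.1 in a3a6KO and 24.1, 38.8, 26.6 and 26.5 in Ctrl, with a log2 fold change of 0.09. It was lowest in a3a6KO replicate 2, as were H2-DMa and the 4 class II members within a3a6KO, but Ctrl replicate 2 was its highest control and one of the lowest for class II. H2-DMa, a chain of the molecule that exchanges peptides on class II, had 118, 35.6 and 81.8 in a3a6KO and 43.2, 43.6, 50.5 and 65.8 in Ctrl, high like Cd74 in a3a6KO replicates 1 and 3 and in Ctrl replicates 3 and 4. Of the 10 loading and control genes listed, 6 passed the filter, 0 were called by limma, 0 had an unadjusted p under 0.05, and the highest means were those of Rfxap and H2-DMb1. Rfxap, a subunit of the RFX complex, had 706, 708 and 461 in a3a6KO and 615, 553, 523 and 546 in Ctrl. H2-DMb1, the beta chain of H2-DM, had 211, 194 and 176 in a3a6KO and 171, 208, 187 and 148 in Ctrl. Both varied far less between libraries than Cd74. Ciita and H2-DMa were chosen after their values were seen.

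Macrophage genes were present in every library, and most were high and low in the same libraries of both genotypes. The 14 macrophage and monocyte genes summed to 719.99, 725 and 1660 normalised counts in a3a6KO replicates 1 to 3 and to 403, 558, 1642 and 1232 in Ctrl replicates 1 to 4. The highest a3a6KO library and the highest Ctrl library were close, and the sums averaged 1035 ± 541 in a3a6KO (SD, n = 3) and 959 ± 581 in Ctrl (SD, n = 4). Lyz2 (GSMG0052703, chromosome 10, 117277334 to 117282323), which encodes the lysozyme of myeloid cells, had 291, 359 and 441 in a3a6KO and 120.5, 181, 624 and 479.6 in Ctrl. Both the lowest and the highest libraries were controls. Its log2 fold change was 0.33 (SE 0.52, 95% interval −0.85 to 1.52, limma adjusted p = 0.922) and turned to −0.079 without Ctrl replicate 1. The edgeR fit gave 0.038 for Lyz2 and DESeq2 gave 0.045.

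The complement genes C1qa, C1qb and C1qc, which tissue macrophages express strongly, lay beside each other on chromosome 4 and were highest in the same libraries. C1qb had 105, 76.5 and 219 in a3a6KO and 68.3, 62.2, 277 and 145 in Ctrl. C1qc had 64.6, 42.2 and 158 in a3a6KO and 26.1, 46.9, 148 and 88.5 in Ctrl, and C1qa had 28.2, 26.4 and 96.1 in a3a6KO and 26.1, 38.8, 85.4 and 53.0 in Ctrl. These were a3a6KO replicate 3 and Ctrl replicates 3 and 4 in all 3 genes. For C1qb the log2 fold change was 0.08 (SE 0.55, 95% interval −1.16 to 1.32, limma adjusted p = 0.984), with means of 134 ± 75.3 in a3a6KO (SD, n = 3) and 138 ± 100.1 in Ctrl (SD, n = 4). The edgeR fit gave −0.072 and DESeq2 −0.059.

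The C1q genes are neighbours and shared a pattern over libraries. Promoter windows are shown for C1qb and C1qc, the 2 of them with a match to GAGGAA. Capitals mark it, a purine-rich core of the kind that the myeloid factor PU.1 (Spi1) and other ETS factors bind. The windows come from the same RefSeq table, both on the minus strand, with C1qb at chr4:136886151-136886450 and C1qc at chr4:136892865-136893164. In C1qc the match is on the other strand, so the capitals read TTCCTC.
C1qb: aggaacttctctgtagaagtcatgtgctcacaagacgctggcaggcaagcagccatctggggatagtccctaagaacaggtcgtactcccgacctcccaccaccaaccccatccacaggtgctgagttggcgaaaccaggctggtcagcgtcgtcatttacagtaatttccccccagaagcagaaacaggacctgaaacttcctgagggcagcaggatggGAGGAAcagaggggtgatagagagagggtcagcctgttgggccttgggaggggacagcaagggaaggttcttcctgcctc
C1qc: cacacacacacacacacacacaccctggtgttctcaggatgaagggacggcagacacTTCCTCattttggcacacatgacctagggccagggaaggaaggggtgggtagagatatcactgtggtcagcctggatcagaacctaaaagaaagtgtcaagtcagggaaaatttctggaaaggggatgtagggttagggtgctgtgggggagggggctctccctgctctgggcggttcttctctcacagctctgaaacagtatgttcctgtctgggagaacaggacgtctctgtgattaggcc
The motif lay 30 bases before the start in C1qb and 193 before it in C1qc, both strands having been searched. GAGGAA was in 28.3% of all windows and in 16 of the 34 member windows, and it was chosen after the sequences were seen. C1qa shared the pattern over libraries but was not among the members with a match. Spi1 itself was low, with 1.66, 10.5 and 21.4 normalised counts in a3a6KO and 6.02, 9.70, 18.4 and 21.9 in Ctrl.

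Receptors and lysosomal genes of macrophages gave the same picture. Csf1r, the receptor for colony stimulating factor that macrophages depend on, had 31.5, 54.1 and 158 in a3a6KO and 45.2, 59.0, 142 and 93.8 in Ctrl. Cd68, a lysosomal membrane glycoprotein, had 41.4, 39.6 and 206 in a3a6KO and 23.1, 41.2, 78.0 and 85.5 in Ctrl. Ctss, the cathepsin that trims the invariant chain, had 94.5, 43.5 and 192 in a3a6KO and 29.1, 40.4, 122 and 126 in Ctrl. Each was highest in a3a6KO replicate 3, with the groups overlapping. The integrin genes Itgax (CD11c) and Itgam (CD11b) and the macrophage receptor gene Adgre1 (F4/80) were lower. Itgax ranged from 8.29 to 18.5 in a3a6KO and from 9.70 to 24.8 in Ctrl, and Cybb, the NADPH oxidase subunit, from 11.9 to 55.2 in a3a6KO and from 10.04 to 39.3 in Ctrl. Adgre1 had 1.66, 1.32 and 12.5 in a3a6KO and 0, 4.85, 16.5 and 6.05 in Ctrl, below the filter.

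Fcer1g and Tyrobp, signalling chains that carry immunoreceptor activation motifs in myeloid and NK cells, stood at the opposite ends of the macrophage group. Fcer1g (GSMG0002446, chromosome 1, 171229574 to 171234349) had 19.9, 31.6 and 64.1 in a3a6KO and 17.1, 16.2, 33.1 and 22.7 in Ctrl, and averaged 38.5 ± 22.9 in a3a6KO (SD, n = 3) and 22.2 ± 7.76 in Ctrl (SD, n = 4). Tyrobp (GSMG0034305, chromosome 7, 30413788 to 30417577) had 19.9, 10.5 and 21.4 in a3a6KO and 12.05, 25.9, 48.7 and 43.9 in Ctrl, and averaged 17.3 ± 5.86 in a3a6KO (SD, n = 3) and 32.6 ± 16.9 in Ctrl (SD, n = 4). The groups overlapped for each gene. The log2 fold change was 0.66 for Fcer1g (SE 0.45, 95% interval −0.35 to 1.68) and −0.76 for Tyrobp (SE 0.52, 95% interval −1.94 to 0.41), and the limma adjusted p was 0.830 for both. Leaving out 1 library gave 0.223 (without a3a6KO replicate 3) to 1.043 (without a3a6KO replicate 1) for Fcer1g, and −1.158 (without Ctrl replicate 1) to −0.46 (without a3a6KO replicate 2) for Tyrobp. Their ratio, Fcer1g over Tyrobp, was 1, 3 and 3 in a3a6KO and 1.42, 0.625, 0.679 and 0.517 in Ctrl. It overlapped between the groups at a3a6KO replicate 1 and Ctrl replicate 1, it was chosen after the values were seen, and it rests on 8 to 58 reads a gene and library.

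**Figure D3:**
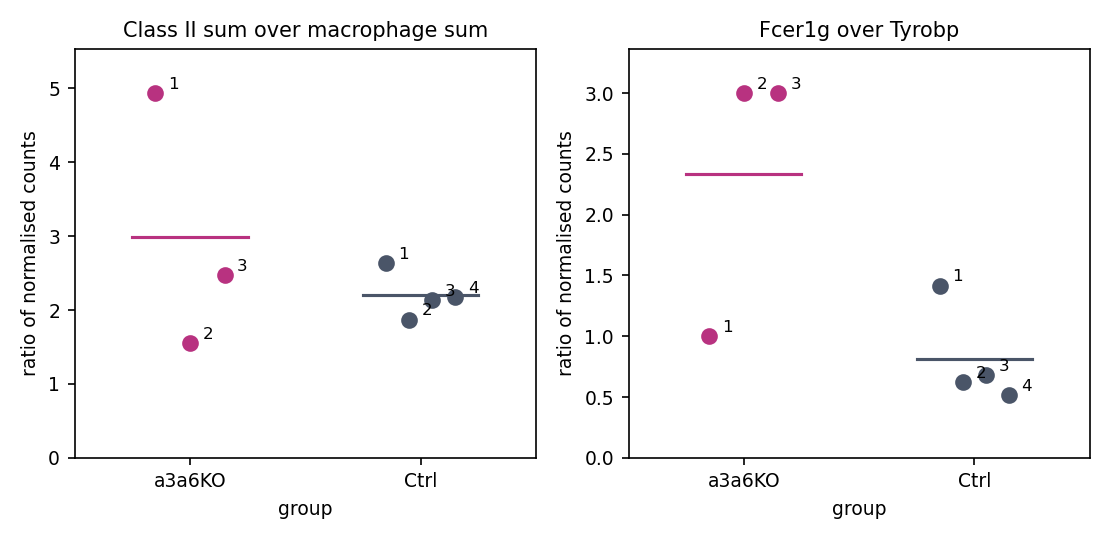
Ratio of the class II sum to the macrophage sum (left) and of Fcer1g to Tyrobp (right) in each a3a6KO and Ctrl library, numbered by replicate, with a line at the group mean. In the left panel a3a6KO replicate 1 stands at 4.94, above 1.55 to 2.63 in the other libraries, and in the right panel a3a6KO replicates 2 and 3 stand at 3, above 1.42 in Ctrl replicate 1.

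Class II and macrophage transcripts did not keep 1 ratio. The class II sum over the macrophage sum was 4.94, 1.55 and 2.48 in a3a6KO and 2.63, 1.87, 2.14 and 2.18 in Ctrl. The high value came from a3a6KO replicate 1, whose class II sum of 3554 was close to that of Ctrl replicate 3 (3514) while its macrophage sum was below it. Cd74 over Csf1r was likewise 65.0 in a3a6KO replicate 1, with 12.6 and 15.7 in the other a3a6KO libraries and 10.2 to 16.6 in Ctrl.

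Pan-leukocyte genes divided into a steady pair and a variable rest. Ptpn6 (GSMG0033661, chromosome 6, 124720707 to 124738709), the phosphatase SHP-1, had 413, 508 and 511 in a3a6KO and 578, 576, 535 and 496 in Ctrl. Arhgdib (GSMG0033827, chromosome 6, 136923656 to 136941899) had 489, 630.3 and 546 in a3a6KO and 466, 592, 420.5 and 419 in Ctrl. Their highest library exceeded their lowest by 1.40-fold and 1.504-fold, against a median of 4.54-fold over the 24 filtered members with reads in every library. The log2 fold change was −0.20 for Ptpn6 (SE 0.14, 95% interval −0.51 to 0.11, limma adjusted p = 0.830) and 0.23 for Arhgdib (SE 0.17, 95% interval −0.15 to 0.61, limma adjusted p = 0.837). Ptpn6 averaged 477 ± 55.3 in a3a6KO (SD, n = 3) and 546 ± 38.9 in Ctrl (SD, n = 4). Both genes are also known from cells outside the blood lineage.

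The other 11 pan-leukocyte genes summed to 259, 229 and 516 in a3a6KO and to 227, 223, 447 and 545 in Ctrl, highest in the same 3 libraries as the macrophage genes. Lcp1, an actin-bundling plastin, held the largest share, with 118, 109 and 251 in a3a6KO and 114, 83.2, 193 and 228 in Ctrl. Laptm5, a lysosomal protein of leukocytes, had 52.2, 31.6 and 126 in a3a6KO and 32.1, 52.5, 117 and 121 in Ctrl. Ptprc had 9.94, 21.1 and 39.1 in a3a6KO and 19.1, 12.1, 29.4 and 53.7 in Ctrl. All 3 genes were high in a3a6KO replicate 3 and in Ctrl replicates 3 and 4. Vav1 (GSMG0016841, chromosome 17, 57279098 to 57329236), an exchange factor that acts below antigen receptors, had the smallest limma p of the 25 members that passed the filter. It had 12.4, 9.23 and 35.6 in a3a6KO and 4.02, 11.3, 13.8 and 6.81 in Ctrl. Its log2 fold change was 0.90 (SE 0.60, 95% interval −0.46 to 2.26, limma adjusted p = 0.830), with only a3a6KO replicate 3 above every control, and it was 0.351 without that library.

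Of the remaining pan-leukocyte genes, Coro1a, a coronin of leukocytes, lay between 25.1 and 46.4 in a3a6KO and between 26.1 and 84.7 in Ctrl. Cd52, a small surface glycoprotein, lay between 8.29 and 15.8 in a3a6KO and between 2.01 and 20.2 in Ctrl. The other 5 did not pass the filter. Cd53, a tetraspanin, lay between 5.27 and 8.90 in a3a6KO and between 1.62 and 10.6 in Ctrl, Cd48, an adhesion receptor, between 1.66 and 7.12 in a3a6KO and between 0 and 9.18 in Ctrl, and Rac2, a GTPase of blood cells, between 1.66 and 7.12 in a3a6KO and between 4.85 and 13.6 in Ctrl. Ikzf1, a zinc finger factor of lymphoid development, had 3, 1 and 0 reads in a3a6KO and 4, 11, 7 and 8 in Ctrl, so that its groups did not overlap. How often genes below the filter have groups without overlap was not counted. Cd37 had 0 reads in every a3a6KO library and 6, 0, 2 and 4 in Ctrl. At normalised counts of at most 8.89 and 6.02 these genes lay near the limit that a count of 0 allows (3 reads), which was 2.49 to 5.34 normalised counts in a3a6KO and 2.27 to 3.01 in Ctrl. The a3a6KO replicates 2 and 3 were the shallowest libraries.

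**Figure D4:**
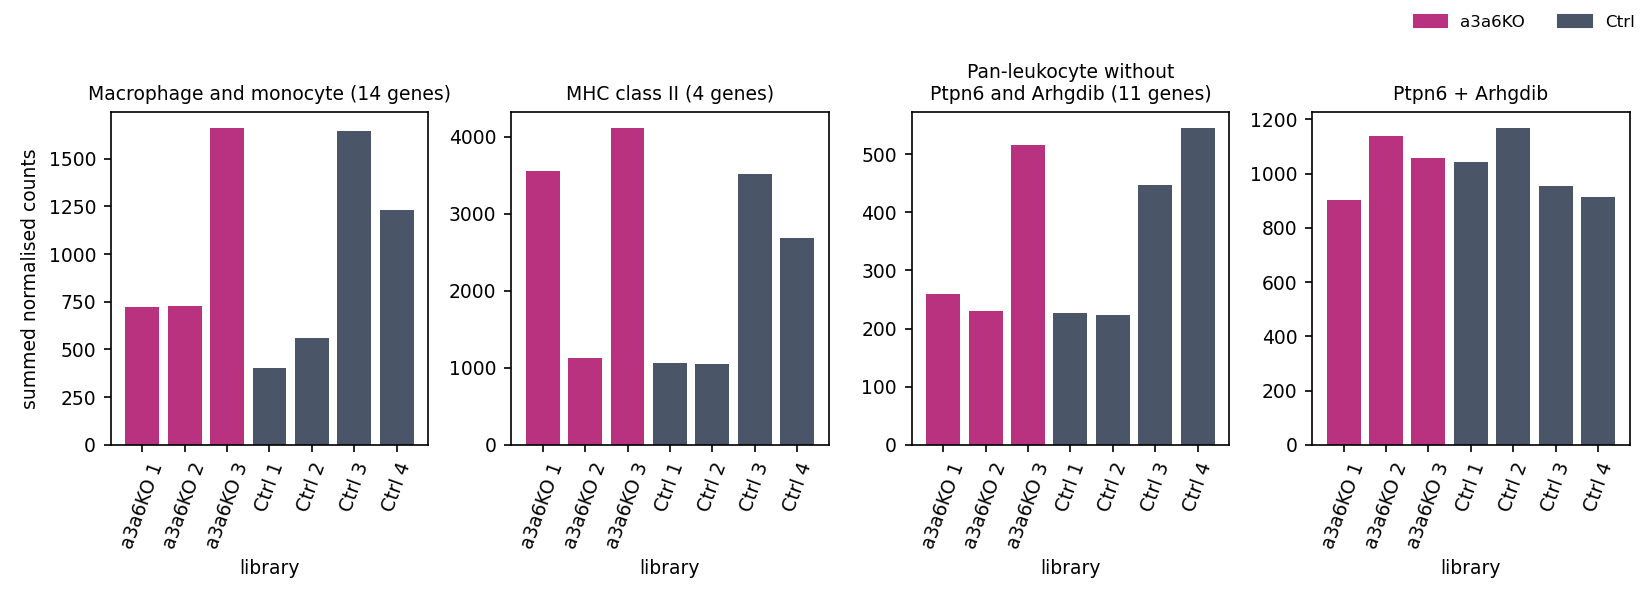
Summed normalised counts in each a3a6KO and Ctrl library for macrophage and monocyte genes, class II genes, the 11 pan-leukocyte genes other than Ptpn6 and Arhgdib, and those 2 genes. The first 3 panels hold low and high libraries in both genotypes, whereas Ptpn6 and Arhgdib together stay between 902 and 1168.

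Most luminal markers, but not the luminal keratins, were high in the same libraries as most macrophage genes. Of the 38 genes, 15 had their 3 highest values in a3a6KO replicate 3, Ctrl replicate 3 and Ctrl replicate 4, among them 9 macrophage and 5 pan-leukocyte genes and 0 class II genes. These 3 libraries were chosen after the values were seen. The share of all genes highest in them was not counted, so the 15 cannot be set against a background. The 12 luminal markers, which include milk protein genes, summed to 89526, 144048 and 314755 in a3a6KO replicates 1 to 3 and to 174875, 119733, 543503 and 729032 in Ctrl replicates 1 to 4, highest in the same 3 libraries. Csn2 and Wap had the highest means of the list (170472 and 82723), so the sum mostly describes milk protein transcripts. Apart from Krt8, Krt18 and Krt19, each luminal marker had its 3 highest values in those libraries. These 3 keratins were each highest in Ctrl replicate 1 or 4. Krt8 had 7953, 11240 and 10280 in a3a6KO and 17769, 10962, 9479 and 13870 in Ctrl. The 8 fibroblast markers summed to 24399, 21357 and 31533 in a3a6KO and 16745, 17474, 27471 and 20798 in Ctrl, highest in a3a6KO replicate 3 and Ctrl replicate 3, with Ctrl replicate 4 below a3a6KO replicates 1 and 2. All 12 luminal and all 8 fibroblast markers passed the filter, and no defining marker of either list was at 0. Their part in the immune gene levels was not tested.

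Neutrophil transcripts were near the limit of detection. S100a8 and S100a9, the calprotectin subunits that neutrophils hold in quantity, summed to 4.97, 0 and 21.4 in a3a6KO and to 3.01, 4.04, 11.02 and 33.3 in Ctrl, from 82 reads in all. S100a8 had 1.66, 0 and 10.7 in a3a6KO and 3.01, 2.42, 0 and 19.7 in Ctrl, and did not pass the filter. S100a9 had 3.31, 0 and 10.7 in a3a6KO and 0, 1.62, 11.02 and 13.6 in Ctrl, with a log2 fold change of −0.33 (SE 1.20, 95% interval −3.04 to 2.39, limma adjusted p = 0.964). Its sign turned to 0.616 without a3a6KO replicate 2.

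Transcripts of the B cell genes with a row of their own were nearly absent from the counts. The row that spans the immunoglobulin heavy chain cluster, given under other observations, ran from 18.1 in Ctrl replicate 1 to 285 in Ctrl replicate 4. Cd79a, a signalling chain of the B cell receptor, had 2, 4 and 0 reads in a3a6KO and 1, 1, 0 and 1 in Ctrl, and its partner Cd79b had 0 reads in all 7 libraries. For Cd79b, a count of 0 allows up to 3 of the 109563728 reads of all libraries, counting error only. Of 10 further B cell genes with a row, 0 passed the filter, 3 were at 0 in every library (Ms4a1, Pax5 and Ighd), and the list held 45 reads. The rows of Pax5 (chromosome 4, 44526388 to 44529160) and Ighd (chromosome 12, 113409439 to 113409645) cover only part of each gene. Their annotated exons join to 8853 and 1900 bases, so a 0 in these 2 rows does not show that the transcript was absent. Cxcr5, a chemokine receptor of B cell follicles, had the highest mean of them, at 0 to 1.66 in a3a6KO and 1.004 to 3.23 in Ctrl.

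T cell transcripts were as scarce. Cd3e, a chain of the T cell receptor complex, had 0, 8 and 0 reads in a3a6KO and 0, 0, 2 and 0 in Ctrl, and Cd3d had 0, 2 and 2 in a3a6KO and 0 in every Ctrl library. Nkg7, a granule protein of cytotoxic cells, had 4, 0 and 0 reads in a3a6KO and 0, 2, 2 and 0 in Ctrl. The 3 genes together held 22 reads, against 6862 for the macrophage group and 17181 for class II. Of 19 further T and NK cell genes with a row, 1 passed the filter. It was Lck, the kinase that starts T cell receptor signalling, with 22.4, 14.5 and 33.8 in a3a6KO and 7.03, 20.2, 14.7 and 29.5 in Ctrl (log2 fold change 0.46, SE 0.52, limma adjusted p = 0.893). Next came Cd247, at 3.56 to 9.11 in a3a6KO and 3.23 to 8.03 in Ctrl. Ighm, Igkc, Igha, Trac, Trbc1 and Trbc2 had no row of their own and were not analysed as single genes. A row that joins Ighm with other genes of the heavy chain cluster is given under other observations.

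Between the genotypes, no immune gene passed the test. Of the 25 members tested, limma called 0 at an adjusted p under 0.05, as did edgeR and DESeq2. Over all 16889 genes limma called 0%, edgeR 0% and DESeq2 0.426%. DESeq2 gave no adjusted p for Vav1 and S100a9 and so could not call them, and its share counts genes without an adjusted p as not called. At an unadjusted p under 0.05 each tool held 0 members, while limma held 6.32% of all genes, edgeR 6.07% and DESeq2 6.69%. The groups overlapped for all 25, and did not overlap for 7.51% of all genes tested. The members' log2 fold changes had a median of 0.08, with 15 above 0 and 10 below, against a median of −0.004 over all genes. They ran from −0.76 for Tyrobp to 0.90 for Vav1, with limma adjusted p from 0.830 to 0.994. By role the median was −0.07 for 8 pan-leukocyte genes, 0.06 for 12 macrophage genes and 0.46 for the 4 class II genes. The 95% intervals of all members tested but Ptpn6, Arhgdib and Lcp1 reached past a log2 change of 1 in at least 1 direction. A change of that size was thus not excluded for most of them by these libraries.

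**Figure D5:**
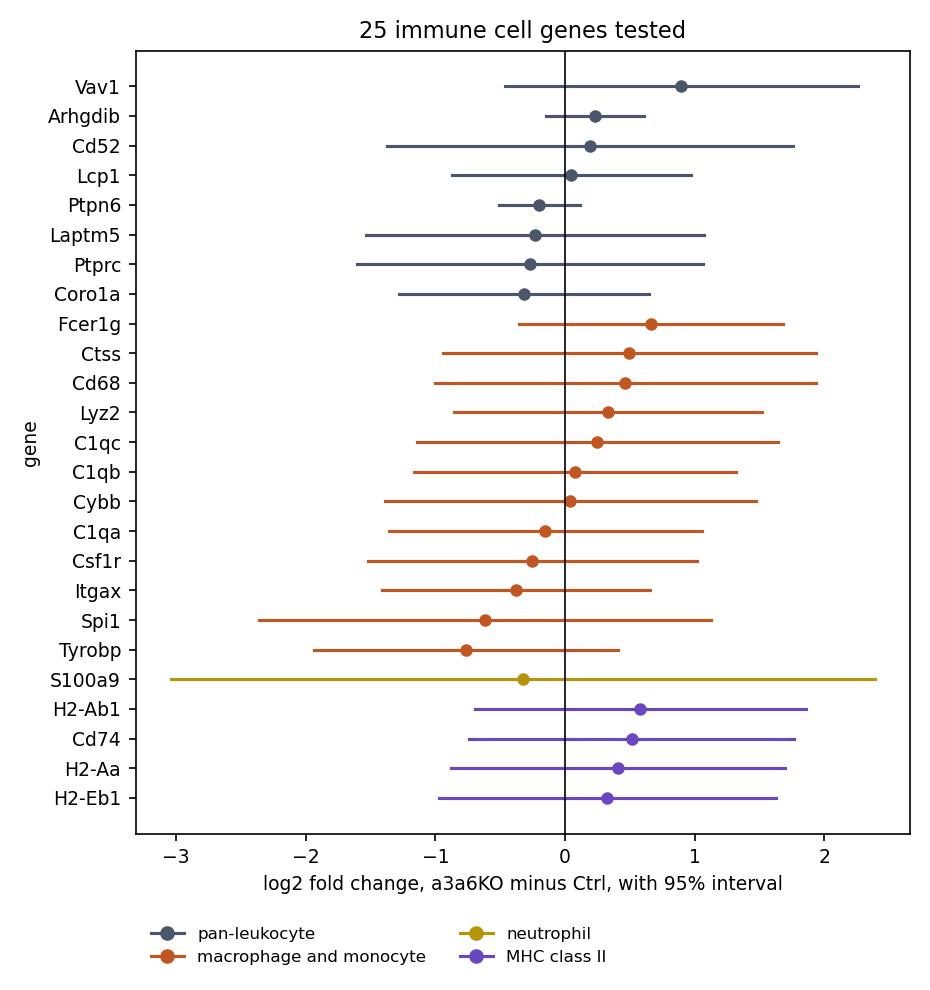
Log2 fold change of a3a6KO over Ctrl (normalised counts plus 1) with its 95% interval from limma, for the 25 members that passed the filter, coloured by role group. Every interval includes 0, and Ptpn6 and Arhgdib have the narrowest, −0.51 to 0.11 and −0.15 to 0.61.

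With no filter, 37 members could be fitted and 4 had an unadjusted p under 0.05, where 5.64% of 31483 genes did. They were Ikzf1, Itgam and Cd37, lower in a3a6KO, and Cd3d, higher in a3a6KO, with limma adjusted p of 0.801 for Ikzf1 and 0.875 for the other 3. Itgam, Cd37 and Cd3d each had a group with 0 reads in every library, so no fold change is given for them. Ikzf1 had a log2 fold change of −1.83 (SE 0.64), lower in 3 of 3 a3a6KO libraries than in every control. The share of the 31483 genes without overlap was not counted, so Ikzf1 is not read as a result. Itgam had 0 reads in the 3 a3a6KO libraries and 2, 0, 8 and 8 in Ctrl, and Cd3d held 4 reads in all.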

How the data were processed

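The deposited table holds a normalised signal for every gene in each library, made by the authors with DESeq2 size factors from gene counts, per the deposited file's title and the submitters' processing notes. These notes also name STAR 2.4.0, FastQC, Picard, SAMtools and build mm10. The counting tool and strand setting were not given in the sources used here, which leaves overlapping and antisense genes unseparated. Libraries were made from total RNA with SMARTer v4, per the labels' protocols. Whole reads were recovered from each library's step for 100% of values (within 0.05 of a read). The step of Ctrl replicate 1 was close to 1. Even counts were in excess at low values, and no molecular identifiers are named, so the limits set by a count of 0 cover counting error only. The 95% intervals are limma's, from the spread between libraries.

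The members and lists were chosen with earlier results of these data known. Differences were tested in limma 3.58.1 (R 4.3.3) with a trend on log2(value + 1), two-sided, with Benjamini-Hochberg adjustment over 16889 genes (threshold 0.05). Alternatives were the edgeR 4.0.16 quasi-likelihood test and DESeq2 1.42.0 on the recovered reads, pseudocount 5, no filter, TMM scaling and leaving out each library. The steps were tested on simulated data. P-values measure the spread between these samples only, which may be technical where they do not come from separate animals.

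Lengths are unions of annotated exons. Per-library values with tests were set for the 2 members of highest mean and the 2 of smallest unadjusted p in each role group, and for 6 receptor signalling chains. For each other list the 2 measured genes of highest mean were named. One of them, in the B cell list, is not reported here. Other genes were named after their values were seen.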

Additional observations from a re-analysis of the deposited data

Results flagged for a closer look

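In the 4 Ctrl libraries, 3 of 43 sets of values had 1 library set apart from the rest by Dixon's criterion. Chance alone meets it in about 1 of 20 such sets if the values are normally distributed. That rate does not hold for counts near 0. The 3 a3a6KO libraries were not examined with it. Coro1a had a normalised count of 84.72 in Ctrl replicate 4, against 26.1 to 35.8 in the other controls and 25.1 to 46.4 in a3a6KO. S100a8 had 19.67 in Ctrl replicate 4, from 26 reads, against 0 to 3.01 in the other controls. Cd3e had 1.836 in Ctrl replicate 3, from 2 reads, against 0 in the other controls, which lies under the limit that a count of 0 allows. A set with only 1 value above 0 always meets the criterion, so the flag of Cd3e carries no information.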

How the results depend on the processing

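The count of members called was 0 in all settings run (pseudocount 5, no filter, TMM scaling, edgeR, DESeq2 and leaving out each library), with a smallest limma adjusted p of 0.695, without a3a6KO replicate 2. Vav1 and S100a9 had no adjusted p from DESeq2. Over all genes DESeq2 called 72 and limma 0. Without the filter 1 of 37 members had groups that did not overlap (Ikzf1). The share over all genes was not counted in that setting, so Ikzf1 is not read as a result. In the same setting 4 members had an unadjusted p under 0.05, where 5.64% of 31483 genes did. Leaving out 1 library gave 0 to 1 members without overlap (H2-Eb1 without a3a6KO replicate 2, Tyrobp without Ctrl replicate 1, Arhgdib without Ctrl replicate 2, Ptpn6 without Ctrl replicate 4) and 0 to 1 at an unadjusted p under 0.05 (Tyrobp without Ctrl replicate 1). The shares over all genes were not counted in these reduced sets, so these members are not read as results. The sign turned for C1qb with edgeR (−0.072) and DESeq2 (−0.059), and leaving out 1 library gave −0.349 to 0.499 for C1qb, −1.063 to 0.616 for S100a9 and −0.079 to 0.709 for Lyz2. It gave 0.351 to 1.271 for Vav1, 0.138 to 0.344 for Arhgdib and −0.251 to −0.099 for Ptpn6, with no change of sign. The cause was not tested. The macrophage median ran from −0.394 without a3a6KO replicate 3 to 0.367, and the pan-leukocyte median from −0.28 to 0.211. The median of all genes stayed between −0.023 and 0.004. No paired analysis was possible because the labels give no replicate numbers shared by the groups. Low depth limits the 13 members below the filter, where single reads set the values.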

Other observations

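Other leukocyte lists were mostly at low counts. In the plasma cell list, 2 of 5 genes with a row passed the filter, 0 were called by limma and 0 had an unadjusted p under 0.05. They were Derl3, with 14.1, 21.1 and 39.1 in a3a6KO and 6.02, 6.46, 25.7 and 65.1 in Ctrl, and Irf4, with 10.8, 9.23 and 5.34 in a3a6KO and 1.004, 10.5, 14.7 and 4.54 in Ctrl. Jchain, the joining chain of secreted IgA and IgM, had 0 in every a3a6KO library and 0, 0, 27.5 and 18.2 in Ctrl, so its reads lay in Ctrl replicates 3 and 4. A feature that spans the immunoglobulin heavy chain cluster, which joins several genes in 1 row, had 38.9, 36.9 and 85.4 in a3a6KO and 18.1, 44.4, 234 and 285 in Ctrl, highest in the same 2 controls. Jchain and this feature were chosen after their values were seen.

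Of 18 further macrophage genes, 8 passed the filter, 0 were called by limma and 1 had an unadjusted p under 0.05. The median level of the 18 was 2.86 per kilobase, far below the 36.2 of the 14 macrophage and monocyte members. Vsig4 and Marco were at 0 in every library, and Trem2 held 4 reads in all. Cd14, the endotoxin coreceptor, had 263, 314 and 1060.4 in a3a6KO and 143, 349.8, 827 and 1634 in Ctrl. The gene under the threshold was Csf2rb, a cytokine receptor chain, with 124, 251 and 219 in a3a6KO and 74.3, 137, 57.8 and 121 in Ctrl (log2 fold change 1.04, SE 0.36, limma adjusted p = 0.691). In the dendritic cell list 3 of 10 passed and 2 had an unadjusted p under 0.05. Fscn1, an actin-bundling protein, had 1408, 1019 and 1128 in a3a6KO and 368, 449, 626 and 714 in Ctrl (log2 fold change 1.17, SE 0.24, limma adjusted p = 0.515), with no overlap of the groups. Zbtb46, a transcription factor of classical dendritic cells that endothelial cells also express, had 67.9, 119.99 and 137 in a3a6KO and 60.2, 80.8, 29.4 and 62.8 in Ctrl (log2 fold change 0.91, SE 0.38, limma adjusted p = 0.768). Other dendritic cell genes were low, and Flt3 was at 0 in every library. The 10 endothelial markers, 10 of which passed the filter, summed to 9091, 11485 and 12584 in a3a6KO and 4103, 5222, 4596 and 7026 in Ctrl, with 0 called by limma and 10 at an unadjusted p under 0.05. Their part in the values of Fscn1, Zbtb46 and Csf2rb was not tested.

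In the list of 12 further neutrophil genes 1 passed the filter, Il1b, with 51.4, 44.8 and 326 in a3a6KO and 32.1, 63.0, 134 and 208 in Ctrl. Csf3r, the receptor for granulocyte colony stimulating factor, came next, at 5.27 to 10.7 in a3a6KO and 5.30 to 11.9 in Ctrl. Eosinophil genes held 17 reads over 6 genes, led by Ear2 (1.32 to 3.31 in a3a6KO, 0 to 1.51 in Ctrl) and Prg2 (0 to 3.31 in a3a6KO, 0 to 0.808 in Ctrl). Of 8 mast cell genes 1 passed, Kit, a receptor kinase also found outside mast cells, with 58.0, 63.3 and 33.8 in a3a6KO and 16.1, 6.46, 30.3 and 44.6 in Ctrl (log2 fold change 1.30, SE 0.59, limma adjusted p = 0.785). Hdc, which makes histamine, had 6.59 to 12.5 in a3a6KO and 3.03 to 12.9 in Ctrl. Of the 5 red blood cell genes 3 passed, 0 were called by limma and 2 had an unadjusted p under 0.05, and the 5 genes summed to 639.6, 787 and 612 in a3a6KO and 25.1, 189.9, 242 and 359 in Ctrl.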
